A study of Mus musculus with 9 samples.

Results

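The transcripts of 10 genes of hepatic insulin signalling and its FOXO1-type outputs were measured in livers of chow-fed and sucrose-fed mice. The genes were chosen by name, as the insulin receptor (*Insr*), its adaptors (*Irs1*, *Irs2*), the PI3-kinase regulatory subunit (*Pik3r1*), the AKT kinases (*Akt1*, *Akt2*), FOXO factors (*Foxo1*, *Foxo3*) and the secreted IGF-binding proteins *Igfbp1* and *Igfbp2*. They are 10 of the 19329 gene symbols in the tables, and 10 of the 12091 genes with enough reads to be tested. Each of the 9 libraries came from the liver of a separate mouse of the inbred strain C57BL/6J. In the Chow group, 5 mice stayed on standard chow. In the HSD group, 4 mice ate a high-sucrose diet for 3 weeks from the age of 8 weeks, and all livers were taken at 11 weeks. Both groups lived under the same light and dark cycle. The sex of the mice, their feeding state and the time of day at necropsy are not given in the sources used here, and the diet is the only labelled difference. Whole liver was measured, so fewer cells of a type and less RNA per cell cannot be told apart.

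Insulin binds its receptor on hepatocytes, and the receptor phosphorylates the adaptors IRS1 and IRS2, which recruit PI3-kinase. PI3-kinase in turn activates AKT, and AKT phosphorylates FOXO1 and FOXO3 so that they leave the nucleus. In fasting, nuclear FOXO1 raises genes of glucose output together with *Irs2* and *Igfbp1*, and feeding lowers them. The measurements here are of transcripts, and phosphorylation of the proteins was not measured.

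FOXO factors bind short motifs, and the best known of these in a liver promoter is the insulin response sequence before *Igfbp1*. The windows of 250 bases before the transcription start (RefSeq, GRCm38.p6) are shown for the 3 genes with a match to the FOXO-type motif CAAAACA and for *Foxo1*, the one gene that passed the diet test. They lie at chr11:7197537-7197786 on the plus strand for *Igfbp1*, at chr8:11008930-11009179 on the minus strand for *Irs2*, at chr1:82291440-82291689 on the minus strand for *Irs1* and at chr3:52268087-52268336 on the plus strand for *Foxo1*. The RefSeq start of *Irs2* lies upstream of the GENCODE gene model used for its position below. Each window reads 5′ to 3′ toward the start. Capitals mark matches to CAAAACA or to TTATTTTG. Where CAAAACA lies on the opposite strand, the capitals read TGTTTTG.
Igfbp1: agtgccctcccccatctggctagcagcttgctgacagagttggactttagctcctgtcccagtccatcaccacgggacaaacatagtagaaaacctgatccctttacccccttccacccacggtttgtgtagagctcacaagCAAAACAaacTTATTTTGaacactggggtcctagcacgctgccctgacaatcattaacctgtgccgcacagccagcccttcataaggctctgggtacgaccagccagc
Irs2: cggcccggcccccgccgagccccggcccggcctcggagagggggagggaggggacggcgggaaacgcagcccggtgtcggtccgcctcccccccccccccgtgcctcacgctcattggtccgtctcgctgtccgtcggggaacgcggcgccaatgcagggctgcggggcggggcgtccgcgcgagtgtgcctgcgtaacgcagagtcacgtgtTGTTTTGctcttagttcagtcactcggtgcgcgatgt
Irs1: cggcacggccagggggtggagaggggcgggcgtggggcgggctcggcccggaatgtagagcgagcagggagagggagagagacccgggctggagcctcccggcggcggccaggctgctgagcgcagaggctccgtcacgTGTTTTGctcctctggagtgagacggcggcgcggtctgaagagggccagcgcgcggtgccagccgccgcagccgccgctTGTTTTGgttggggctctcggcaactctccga
Foxo1: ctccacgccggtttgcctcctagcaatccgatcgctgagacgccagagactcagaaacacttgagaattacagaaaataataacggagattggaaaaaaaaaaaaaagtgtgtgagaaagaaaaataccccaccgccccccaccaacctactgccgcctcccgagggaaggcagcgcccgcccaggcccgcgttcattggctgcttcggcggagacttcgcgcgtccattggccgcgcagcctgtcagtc

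In the *Igfbp1* window, CAAAACA began 108 bases and TTATTTTG 98 bases before the start, on the same strand and separated by a few bases. *Irs2* held CAAAACA on the opposite strand at 37 bases before its start, and *Irs1* held it there at 111 and at 32 bases. The window of *Foxo1* held none of them, nor GTAAACA, a further FOXO-type motif. A window was found for 9 of the 10 genes (15 windows). Of these, 4 genes, each in 1 window, had a match to CAAAACA, TTATTTTG or GTAAACA on either strand. The other match was GTAAACA on the opposite strand 161 bases before one start of *Akt1*. None of these motifs overlaps another in the windows shown. Among 32851 windows of all genes, 5.56% held CAAAACA, 1.49% TTATTTTG and 3.17% GTAAACA, and 0.14% (46 windows) held both CAAAACA and TTATTTTG, as that of *Igfbp1* does. The share of windows or genes with any of these motifs was not counted, and a gene with several windows has more chances of a match. A match in letters is a description and says nothing about binding in these livers.

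The libraries held 12769668 to 25913869 estimated counts, and each of the 10 genes had 228 to 11170 counts in every liver. Levels within a gene are given as CPM, counts scaled to library size after TMM normalization, the trimmed mean of M values that aligns libraries. Defining hepatocyte transcripts were abundant in every liver, with 88173 to 148725 CPM over a list of 10 on Chow and 111132 to 142789 CPM on HSD, and none of that list was at 0. Transcripts of T, B and NK cells summed to 1.25 to 4.57 CPM and those of neutrophils to 0.0793 to 3.23 CPM. The Chow 1 liver stood apart, with 10112 CPM of the acute-phase gene *Saa2* against 3.69 to 39.5 CPM in the others. Chow 1 and Chow 3 also differed from the other Chow livers in the clock gene *Arntl*, with 4.40 and 9.24 CPM where the rest held 1.35 to 1.63 CPM. Whether these livers shaped a result below was checked only where a value without them is given.

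Of the 10 genes, *Foxo1* alone passed the test, and it was higher on HSD. The quasi-likelihood test of edgeR was run over all 12091 genes, with 7 residual degrees of freedom, and a gene passed at a Benjamini-Hochberg adjusted p value under 0.05. Over all genes 6.67% passed, 3.44% (416) higher and 3.23% (391) lower on HSD. Scaled to library totals instead, 569 were higher and 254 lower, and with limma on log2(TPM + 1) 475 and 101, and on those scales the median gene lay at 0.07 and 0.14 on the log2 scale. Among the 10 genes 1 was higher, 0 were lower and 9 did not pass, 2 had an unadjusted p value under 0.05, and DESeq2 also called 1 (11% of the genes it tested passed). One passing gene in 10 is close to these background shares. Every gene that passed also has an unadjusted p value under 0.05, so the share of such genes over all genes exceeds 6.67%. That share was not counted, and counts of unadjusted p values here and below have no background beside them. The median log2 fold change of the 10 genes was -0.03, against -0.00 over all genes tested, with 4 positive and 6 negative values. The CPM of the diets did not overlap in 1 of the 10 genes, against 11.3% of all genes tested.

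**Figure D1:**
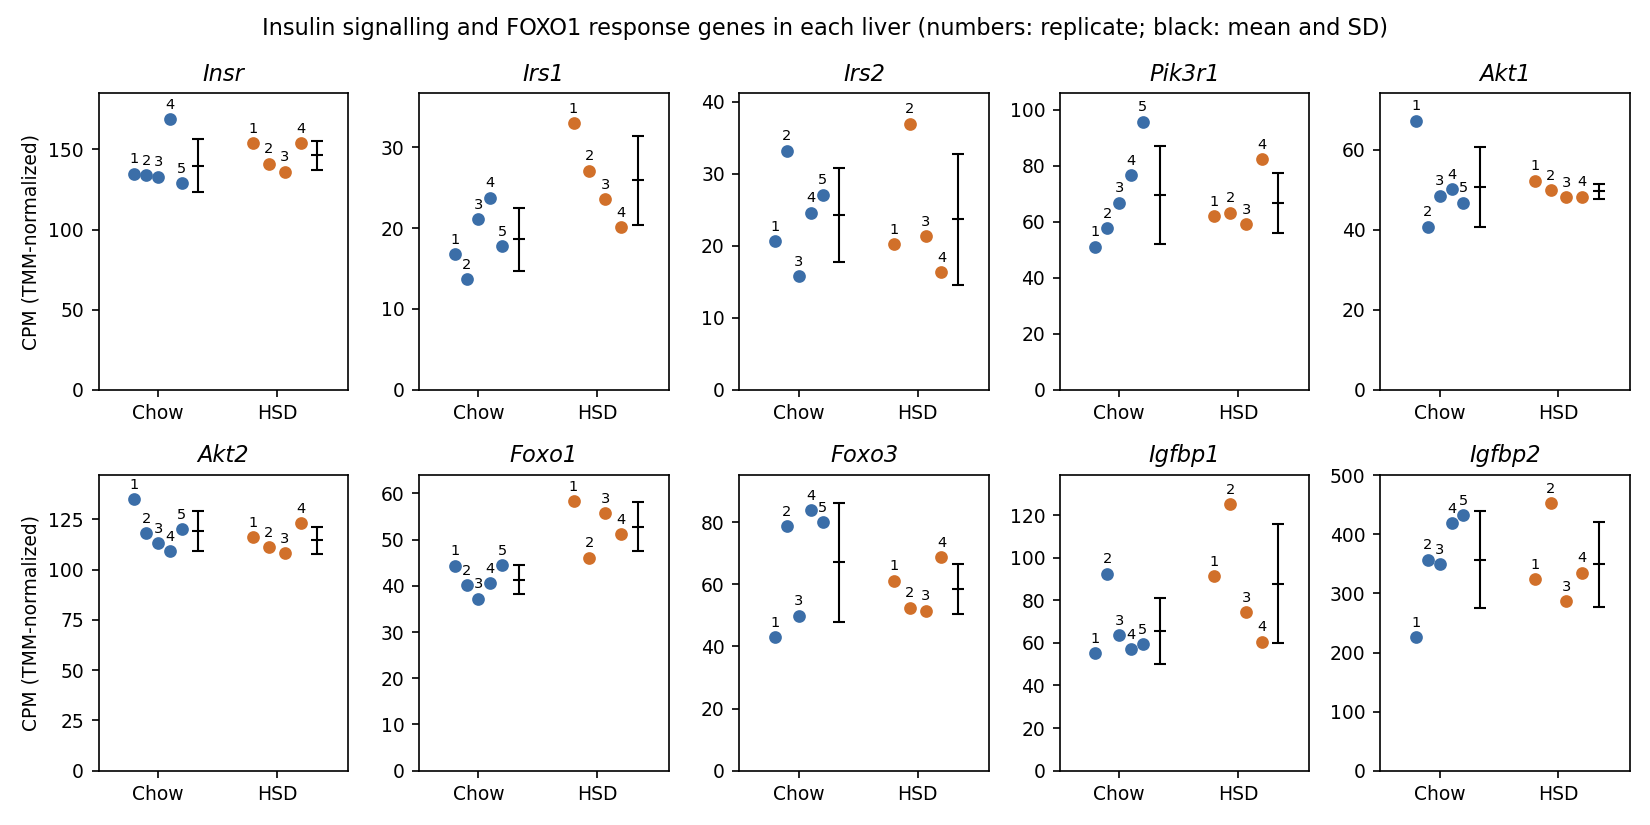
CPM (TMM-normalized) of the 10 genes in each liver, blue for Chow and orange for HSD, with the replicate number beside each point and the mean with its SD in black; every axis starts at 0. *Foxo1* is the gene whose HSD points, 46.1 to 58.3 CPM, all lie above its Chow points, 37.2 to 44.5 CPM, while the diets overlap in the other 9.

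*Foxo1* encodes the forkhead factor that AKT keeps out of the nucleus. It is a gene of 84886 bases at chr3:52268336-52353221 (plus strand, GRCm38, 1 annotated transcript). Its level was 44.4, 40.1, 37.2, 40.6 and 44.5 CPM in Chow 1 to 5 and 58.3, 46.1, 55.7 and 51.2 CPM in HSD 1 to 4. Every HSD liver was above every Chow liver, although HSD 2 was only slightly above Chow 1 and Chow 5. The means were 41.3 ± 3.07 CPM (SD, n = 5) and 52.8 ± 5.36 CPM (SD, n = 4). The log2 fold change was 0.35 (standard error, SE, 0.09, 95% interval 0.16 to 0.55), a ratio of 1.28, with an adjusted p value of 0.0389 from edgeR. *Foxo1* ranked 661 by p value among the genes tested. Other genes hold 8% of its 31-base sequences, and 7.12% are in the antisense gene Gm20402, which is not among the symbols of the tables, and the sources used here do not say whether the counting used strand.

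The call of *Foxo1* lay near the threshold. It passed in 9 of 21 other settings, and the log2 fold change stayed between 0.30 and 0.51 in all of them. The upper end came from limma on log2(TPM + 0.1), where the median of all genes lay at 0.16. With that median subtracted, *Foxo1* was at 0.35. The call was lost without any one of 7 livers. These were Chow 2 (adjusted p = 0.0703 from edgeR), Chow 3 (0.0795), Chow 4 (0.0708), Chow 5 (0.0546), HSD 1 (0.123), HSD 3 (0.0979) and HSD 4 (0.0866). Without the acute-phase liver Chow 1 *Foxo1* passed, with an adjusted p value of 0.0313 from edgeR. The library names fall into 2 numbered series, each with livers of both diets, and the adjusted p value was 0.0829 from edgeR with the series as a covariate. In the first series alone (4 Chow, 2 HSD) the log2 fold change was 0.36 with an adjusted p value of 0.273 from edgeR. In the second, Chow 5 held 44.5 CPM and HSD 3 and HSD 4 held 55.7 and 51.2 CPM, with too few livers for a test. With the difference of *Arntl* and *Dbp* as a clock covariate, the adjusted p value was 0.0601 from edgeR at a log2 fold change of 0.35.

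**Figure D2:**
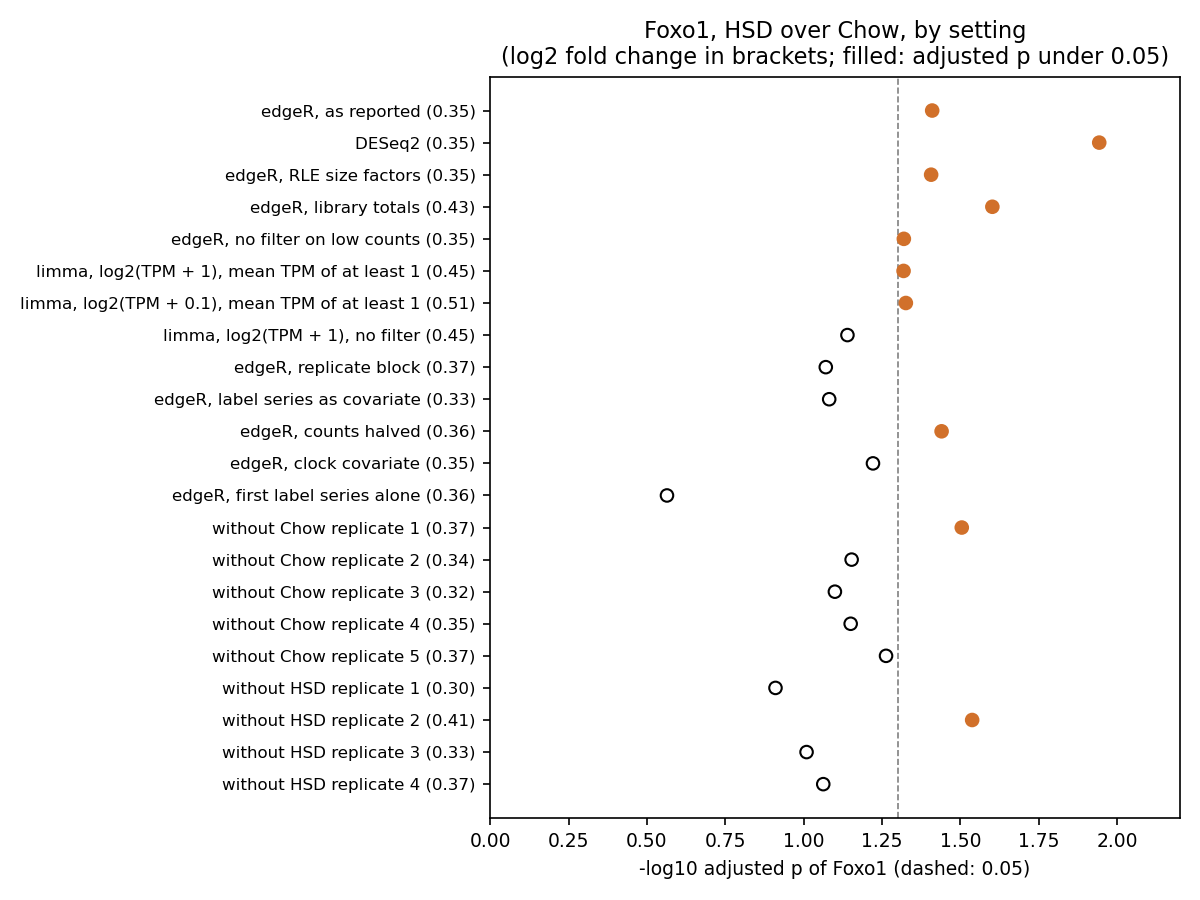
The adjusted p value of *Foxo1* on a -log10 scale (x axis) under each setting (y axis), with the log2 fold change in brackets; filled points passed 0.05 (dashed line), open points did not. The log2 fold change stays within 0.30 to 0.51, while the points lie on both sides of the line and reach from 0.0114 with DESeq2 to 0.273 in the first label series alone.

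*Foxo3*, the related factor that AKT also phosphorylates, did not pass. It is at chr10:42181841-42276755 (minus strand). Its level was 42.9, 78.6, 49.9, 83.8 and 79.9 CPM in Chow 1 to 5 and 61.1, 52.5, 51.5 and 68.7 CPM in HSD 1 to 4. The Chow livers formed a low pair, Chow 1 and Chow 3, and a high trio, and every HSD liver lay between them. HSD against Chow gave a log2 fold change of -0.20 (SE 0.19, 95% interval -0.61 to 0.22, adjusted p = 0.582 from edgeR). Chow 1 and Chow 3 are the Chow livers with the lowest values of the clock output gene *Dbp*, with 43.3 and 27.4 CPM where the rest held 114 to 129 CPM. On HSD, *Dbp* held 35.1 CPM in HSD 1 and 49.4 to 96.2 CPM in the other livers. With the clock covariate the log2 fold change of *Foxo3* was 0.03, its sign changed in 2 of 21 other settings, and whether time of day shaped its level was not tested.

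The insulin receptor gene did not pass the diet test. *Insr* (chr8:3122061-3279617, minus strand) stood at 135, 134, 133, 169 and 129 CPM in Chow 1 to 5 and at 154, 141, 136 and 154 CPM in HSD 1 to 4. Chow 4 was the highest of all 9 livers, and the HSD livers fell inside the Chow range. On the log2 scale the diet difference was 0.06 (SE 0.10, adjusted p = 0.747 from edgeR). Its 95% interval, -0.15 to 0.27, was among the narrower of the set.

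Of the adaptors, *Irs1* was the one with the higher mean on HSD, and it did not pass. *Irs1* (chr1:82233101-82291416, minus strand) held 16.8, 13.7, 21.1, 23.8 and 17.8 CPM in Chow 1 to 5 and 33.0, 27.1, 23.6 and 20.1 CPM in HSD 1 to 4. The diets overlapped, since Chow 3 and Chow 4 lay above HSD 4 and Chow 4 just above HSD 3. The fitted log2 fold change was 0.47 (SE 0.17, 95% interval 0.10 to 0.84, unadjusted p = 0.0161 and adjusted p = 0.116 from edgeR). It was positive in all 21 other settings, between 0.34 and 0.67, and passed in none of them, with adjusted p values from 0.0695 to 0.325. *Irs1* counts are uncertain, because 30.6% of its 31-base sequences are shared with Gm9747, a gene on the opposite strand that is listed in the same tables.

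*Irs2*, the adaptor that FOXO1 raises in fasting, varied among mice of the same diet. *Irs2* (chr8:10984681-11008458, minus strand) held 20.6, 33.2, 15.8, 24.6 and 27.1 CPM in Chow 1 to 5 and 20.2, 37.0, 21.3 and 16.3 CPM in HSD 1 to 4. Chow 2 and HSD 2 were the highest livers and Chow 3 and HSD 4 the lowest. The log2 fold change was -0.03 (SE 0.24, adjusted p = 0.953 from edgeR), and its 95% interval of -0.56 to 0.50 was the widest of the 10 genes. Its sign changed in 12 of 21 other settings.

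*Pik3r1*, the p85 regulatory subunit of class I PI3-kinase, also spread widely within Chow. It is at chr13:101680563-101768217 (minus strand), and held 51.1, 57.6, 66.7, 76.6 and 95.7 CPM in Chow 1 to 5 and 62.0, 63.2, 59.0 and 82.4 CPM in HSD 1 to 4. All HSD livers lay inside the Chow range, for a log2 fold change of -0.06 (SE 0.17, 95% interval -0.43 to 0.31, adjusted p = 0.869 from edgeR). Its sign changed in 6 of 21 other settings.

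Neither AKT kinase passed. *Akt2*, the main form in insulin-sensitive tissues (chr7:27591552-27640826, plus strand), held 109 to 135 CPM over the Chow livers and 116, 111, 108 and 123 CPM in HSD 1 to 4. Apart from a high Chow 1, the livers of the diets were mixed, and the log2 fold change was -0.05 (SE 0.09, 95% interval -0.24 to 0.14, adjusted p = 0.764 from edgeR). *Akt1* (chr12:112653821-112674884, minus strand) held 67.3, 40.8, 48.5, 50.1 and 46.8 CPM in Chow 1 to 5 and 52.3, 49.9, 48.1 and 48.3 CPM in HSD 1 to 4. Chow 1 was highest and Chow 2 lowest, with the HSD livers close together between them, and the log2 fold change was -0.03 (SE 0.12, 95% interval -0.30 to 0.24, adjusted p = 0.916 from edgeR). Without Chow 1 the log2 fold change of *Akt1* was 0.09, and its sign changed in 6 of 21 other settings, that of *Akt2* in 4. Of the 31-base sequences of *Akt2*, 13.3% are shared with other genes, chiefly the pseudogene Akt2-ps.

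*Igfbp1* encodes a liver-secreted protein that binds insulin-like growth factors and is among the most insulin-sensitive FOXO1 targets. It is at chr11:7197782-7202546 (plus strand) and shares none of its 31-base sequences with other genes. Its level was 55.2, 92.4, 63.6, 56.9 and 59.4 CPM in Chow 1 to 5 and 91.4, 125, 74.4 and 60.6 CPM in HSD 1 to 4. Chow 2 stood above the other Chow livers and level with HSD 1, and HSD 2 was the one HSD liver above the Chow range. The means were 65.5 ± 15.3 CPM (SD, n = 5) and 88.0 ± 28.0 CPM (SD, n = 4). HSD against Chow gave a log2 fold change of 0.43 (SE 0.20, 95% interval -0.02 to 0.87, adjusted p = 0.230 from edgeR). It was 0.20 without HSD 2 and 0.58 without Chow 2, positive in all 21 other settings and past the threshold in none.

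*Igfbp2*, a second circulating IGF-binding protein, was the most abundant of the set and did not pass. *Igfbp2* (chr1:72824503-72852474, plus strand) held 226, 357, 350, 419 and 433 CPM in Chow 1 to 5 and 324, 453, 287 and 335 CPM in HSD 1 to 4. Chow 1 was the lowest of the 9 livers and HSD 2 the highest. On the log2 scale the diet difference was -0.03 (SE 0.18, 95% interval -0.43 to 0.37, adjusted p = 0.944 from edgeR), and its sign changed in 11 of 21 other settings.

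**Figure D3:**
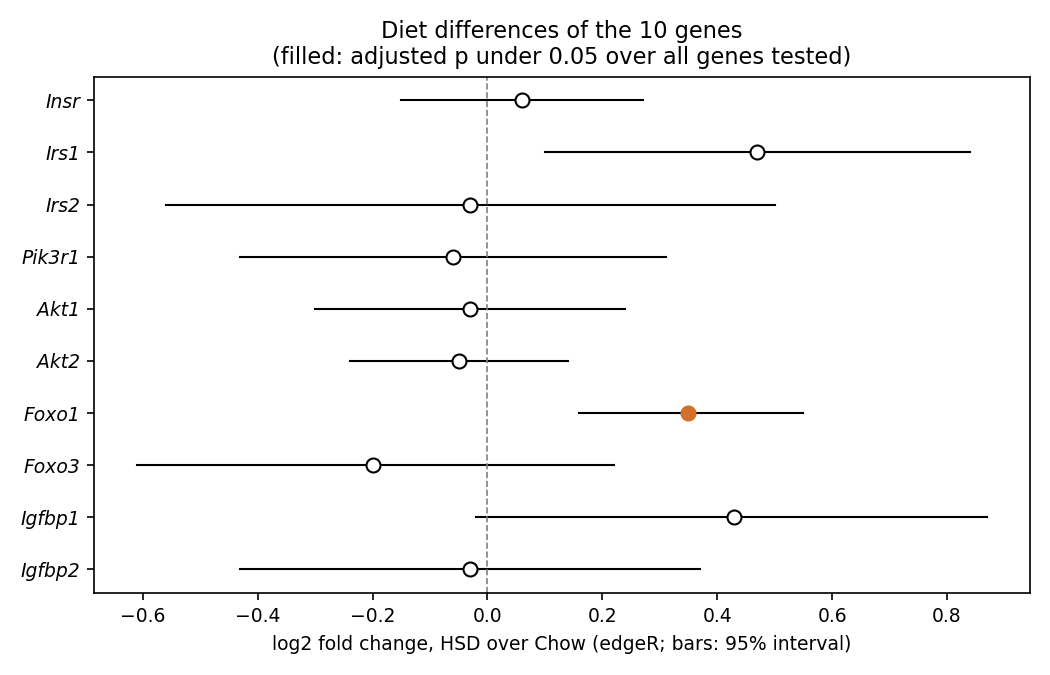
Log2 fold change, HSD over Chow, of the 10 genes (x axis) with 95% intervals from edgeR; the filled point passed an adjusted p value of 0.05 over all genes tested. *Foxo1* at 0.35 and *Irs1* at 0.47 have intervals that leave out 0, *Igfbp1* at 0.43 reaches just below 0, and the other 7 lie between -0.20 and 0.06.

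Across genes, levels were set side by side as TPM, which corrects for transcript length. *Igfbp2* led at 432 ± 124 TPM on Chow (SD, n = 5), and it lay above the next gene in all 9 livers with no overlap. *Igfbp1* (58.4 ± 14.9 TPM) and *Akt2* (51.9 ± 2.17 TPM) came next, and their ranges over the 9 livers overlapped. *Akt2* was above *Akt1* (25.0 ± 4.37 TPM) in 9 of 9 livers with no overlap. *Akt1* and *Insr* (23.8 ± 6.33 TPM) could not be ordered, as *Akt1* was higher in 6 of 9 livers. *Pik3r1* (14.8 ± 5.42 TPM) and *Foxo3* (12.8 ± 4.51 TPM) overlapped too. *Foxo3* was above *Foxo1* (5.60 ± 0.511 TPM) in 9 of 9 livers. The adaptors had the lowest means, *Irs2* at 4.58 ± 1.39 TPM and *Irs1* at 2.41 ± 0.640 TPM, with *Irs2* above *Irs1* in 8 of 9 livers. *Foxo1* lay above *Irs2* in 7 of 9 livers, and their ranges overlapped.

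Within a liver, the balance between related members is free of the scaling between libraries, and 4 ratios of TPM were compared by two-sided exact permutation tests over the 126 splits of the livers (smallest possible p = 0.00794). In no ratio did the difference pass after adjustment over the 4. The *Foxo1*/*Foxo3* ratio was 0.730, 0.371, 0.569, 0.349 and 0.392 in Chow 1 to 5 and 0.718, 0.589, 0.781 and 0.566 in HSD 1 to 4. Chow 1 and Chow 3 lay among the HSD livers, and the other Chow livers lay below all of them. The difference of mean log2 ratios, HSD minus Chow, was 0.51 (exact permutation p = 0.0952, adjusted p = 0.222). The *Igfbp1*/*Igfbp2* log2 ratio went from -2.86 ± 0.43 on Chow to -2.41 ± 0.33 on HSD, a difference of 0.46 (exact permutation p = 0.111, adjusted p = 0.222). The *Irs2*/*Irs1* log2 ratio went from 0.91 ± 0.64 to 0.37 ± 0.48, a difference of -0.54 (exact permutation p = 0.206, adjusted p = 0.238). For *Akt2*/*Akt1* the difference was -0.19 (exact permutation p = 0.238, adjusted p = 0.238). Taken on estimated counts in place of TPM, the *Akt2*/*Akt1* difference was -0.04.

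The TPM and count scales did not give the same diet difference for *Akt1*. On log2(TPM + 0.1) in limma its log2 fold change was 0.29, or 0.13 after subtracting the median of all genes on that scale (0.16), against -0.03 on counts. The estimated count per TPM, relative to the mean of the gene, follows the effective length assigned to its transcripts. For *Akt1* (9 annotated transcripts) it was 1.010, 1.091, 1.084, 0.991 and 1.013 in Chow 1 to 5 and 1.038, 0.890, 0.904 and 0.957 in HSD 1 to 4. HSD 2, HSD 3 and HSD 4 were the lowest livers and HSD 1 lay within the Chow range, so the diets overlapped. *Pik3r1* (7 transcripts) varied as much, from 0.870 in Chow 5 to 1.118 in HSD 4, with livers of both diets mixed. The coefficient of variation over the livers was 7.11% for *Akt1*, 7.02% for *Pik3r1* and 5.51% for *Insr*, against a median of 5.11% over 8771 genes with at least 50 counts in every liver. In the 4 genes with 1 annotated transcript, *Irs1*, *Irs2*, *Foxo1* and *Igfbp1*, it was at most 0.177%. This measure was chosen after the data were seen and has no test.

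**Figure D4:**
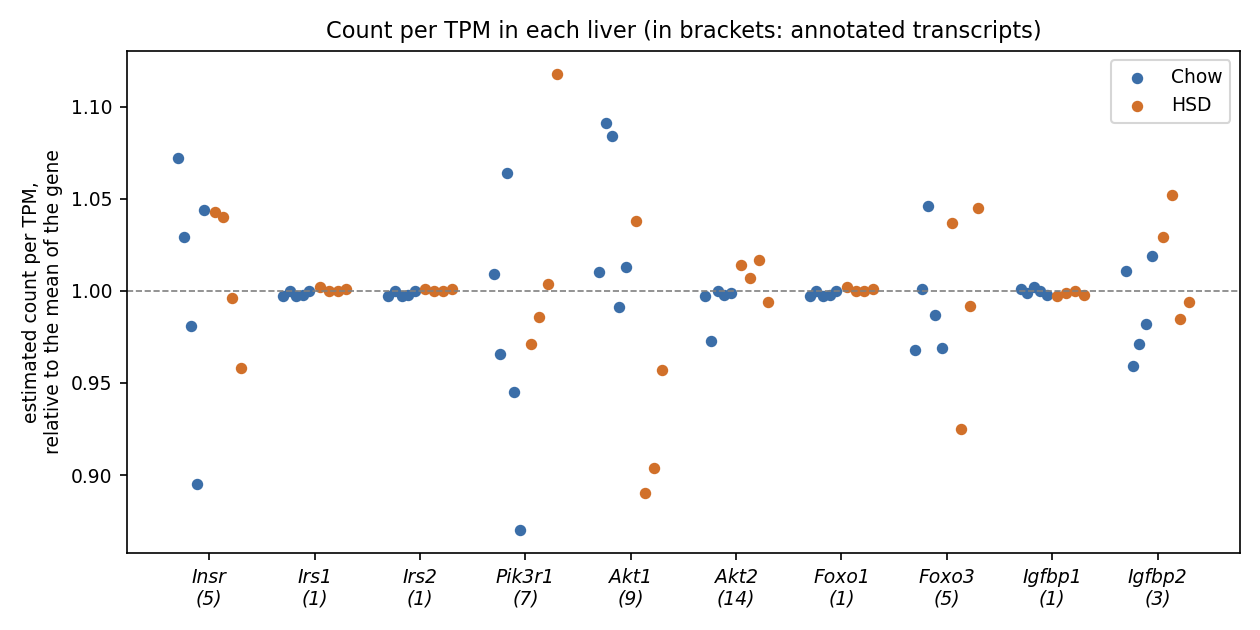
Estimated count per TPM in each liver, relative to the mean of the gene (y axis), for the 10 genes with their number of annotated transcripts in brackets; blue points are Chow and orange points HSD livers, in replicate order. *Irs1*, *Irs2*, *Foxo1* and *Igfbp1* stay within 0.997 to 1.002, while *Akt1* runs from 0.890 to 1.091 and *Pik3r1* from 0.870 to 1.118.

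The wider pathway was read from 8 lists with 129 genes in all, the 10 members among them, of which 122 were tested. On HSD 14 were higher, 4 lower and 104 did not pass, 14.8% called against 6.67% over all genes, and their median log2 fold change was 0.09. Without the 10 genes, 13 of 112 were higher and 4 lower. Of the called genes, 5 came from the list of 7 genes that insulin raises in liver. The largest of these by log2 fold change was the lipase-like *Pnpla3* (3.51, SE 0.51). It was near the floor on Chow, with 2 to 47 counts (0.129 to 2.34 CPM), and held 7.27 to 24.0 CPM on HSD. Next was the fatty acid synthesis enzyme *Acaca* (1.94, SE 0.26, with 33.5% of its 31-base sequences shared with other genes). *Scd1*, the desaturase that makes monounsaturated fatty acids, held 4227 to 18499 CPM on Chow and 31066 to 44494 CPM on HSD (1.75, SE 0.38, adjusted p = 0.0200 from edgeR, and 0.0592 and 0.0618 without HSD 1 and HSD 4). Fatty acid synthase, *Fasn*, held 370 to 905 CPM and 1288 to 2816 CPM (1.65, SE 0.29, adjusted p = 0.00740 from edgeR). Both had every HSD liver above every Chow liver. DESeq2 called 28 pathway genes in place of 18, and edgeR called 10 without HSD 1 or HSD 4. The calls over all genes moved the same way. DESeq2 called 1330 (11%) where edgeR called 807, and edgeR called 302 without HSD 1 and 329 without HSD 4.

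Over all genes 6.67% were called, and in the lists nearest the receptor the counts were 0 of 12 receptors and adaptors, 1 of 10 PI3-kinase subunits, 2 of 20 AKT activators and targets, and 2 of 19 inhibitors (10.5%). Among 12 receptor and adaptor genes 0 were called by edgeR, 4 had an unadjusted p value under 0.05, and DESeq2 called 1, the IGF1 receptor *Igf1r* (0.70, SE 0.23, adjusted p = 0.0937 from edgeR). Of 10 PI3-kinase subunits, *Pik3c2a* was higher (0.81, SE 0.14, adjusted p = 0.00786 from edgeR), a class II enzyme and not a partner of the p85 subunit of *Pik3r1*. Its level was 29.5 to 41.6 CPM on Chow and 52.2 to 82.1 CPM on HSD, and an overlapping antisense gene holds 11.9% of its 31-base sequences. Of 20 AKT activators and targets, *Gsk3b*, the kinase that AKT inhibits, was higher (0.40, SE 0.09) and the atypical protein kinase C gene *Prkcz* lower (-0.55, SE 0.15). The call of *Gsk3b* was lost without Chow 5, HSD 1, HSD 3 or HSD 4 (adjusted p up to 0.0817 from edgeR) and that of *Prkcz* without any liver but Chow 2 or HSD 2 (up to 0.119 from edgeR), and 18.3% of the sequences of *Prkcz* are shared with its copy Prkcz2. Among 19 tested inhibitors of the pathway, *Prkce*, a lipid-activated kinase that acts on the receptor, was higher (0.62, SE 0.14). *Trib1*, a pseudokinase best known for the turnover of C/EBP factors, was lower (-0.38, SE 0.10), and 17 did not pass. The call of *Prkce* was lost without Chow 5, HSD 1, HSD 3 or HSD 4 (adjusted p up to 0.0906 from edgeR), and that of *Trib1* without Chow 2, Chow 4 or any one HSD liver (up to 0.112 from edgeR). With the label series as a covariate the calls of *Prkcz*, *Prkce* and *Trib1* were lost too (adjusted p = 0.0770, 0.0656 and 0.0783 from edgeR). Those of *Prkcz* and *Trib1* were also lost with library totals (0.0638 and 0.0650 from edgeR). On log2(TPM + 1) *Prkcz*, *Trib1* and *Gsk3b* lay at -0.45, -0.19 and 0.42 (adjusted p = 0.127, 0.279 and 0.107 from limma), with the median gene at 0.14. The diets overlapped in *Prkcz*, at 22.5 to 32.1 CPM on Chow and 14.5 to 23.1 CPM on HSD.

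Of 21 tested FOXO factors and regulators 3 passed (14.3%, against 6.67% of all genes tested), *Foxo1* among them. *Crebbp*, the CBP acetyltransferase that modifies FOXO1, was higher (0.42, SE 0.09, adjusted p = 0.0165 from edgeR, and 0.0654 without HSD 4). *Foxa3*, a forkhead factor of hepatocytes that is not a FOXO protein, was lower, at 52.3 to 74.7 CPM on Chow and 37.4 to 46.3 CPM on HSD (-0.70, SE 0.12, adjusted p = 0.00761 from edgeR). On log2(TPM + 1) *Foxa3* lay at -0.51 and did not pass (adjusted p = 0.0593 from limma).

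Of the 27 tested FOXO-type targets, 4 were higher, 1 was lower and 22, among them *Irs2* and *Igfbp1*, did not pass. That is 18.5% called, against 6.67% of all genes tested, and the list's median log2 fold change was 0.06 (-0.00 over all genes tested). DESeq2 called 10 of this list, 6 of them higher, where it called 11% of the genes it tested. Those it called lower were *Trib1*, the 1 lower by edgeR, and *Bcl2l11*, *Pnpla2* and *Sod2*. Their edgeR log2 fold changes were -0.38, -0.69, -0.47 and -0.27. By edgeR, *Bcl2l11*, *Pnpla2* and *Sod2* did not pass (adjusted p = 0.0751, 0.0906 and 0.0696). Called higher by DESeq2 but not by edgeR were *Cdkn1a* and *Mttp* (edgeR log2 fold changes 1.03 and 0.35, adjusted p = 0.0837 and 0.0768 from edgeR). *Pdk4*, a kinase that shuts pyruvate dehydrogenase in fasting, held 1.16, 1.87, 2.31, 1.12 and 1.87 CPM in Chow 1 to 5 and 5.89, 4.67, 6.76 and 6.19 CPM in HSD 1 to 4. Every HSD liver was above every Chow liver, for a log2 fold change of 1.82 (SE 0.23, adjusted p = 0.00167 from edgeR). The coactivator *Ppargc1a*, a partner of FOXO1 in glucose output, was higher too (0.93, SE 0.17, adjusted p = 0.00955 from edgeR), at 5.30 to 8.76 CPM on Chow and 10.7 to 16.3 CPM on HSD. *Cited2*, a CBP-binding factor, and *Sesn3*, a sestrin, were the other genes that were higher, with log2 fold changes of 0.69 (SE 0.19) and 0.43 (SE 0.12). The call of *Cited2* held without Chow 1 or Chow 2 but was lost without any one of the other 7 livers, and that of *Sesn3* held without Chow 1 and was lost without any one of the other 8. Their adjusted p values then reached 0.149 and 0.148 from edgeR, and with the label series as a covariate they were 0.0736 and 0.0973. *Pck1* and *G6pc*, the gluconeogenic enzymes that FOXO1 raises, did not pass. *Pck1* held 2608 to 4004 CPM on Chow and 3008 to 3827 CPM on HSD (log2 fold change -0.01, SE 0.15, adjusted p = 0.975 from edgeR). *G6pc* held 239 to 917 CPM and 329 to 469 CPM (-0.17, SE 0.33, adjusted p = 0.801 from edgeR), the high Chow value being Chow 2.

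**Figure D5:**
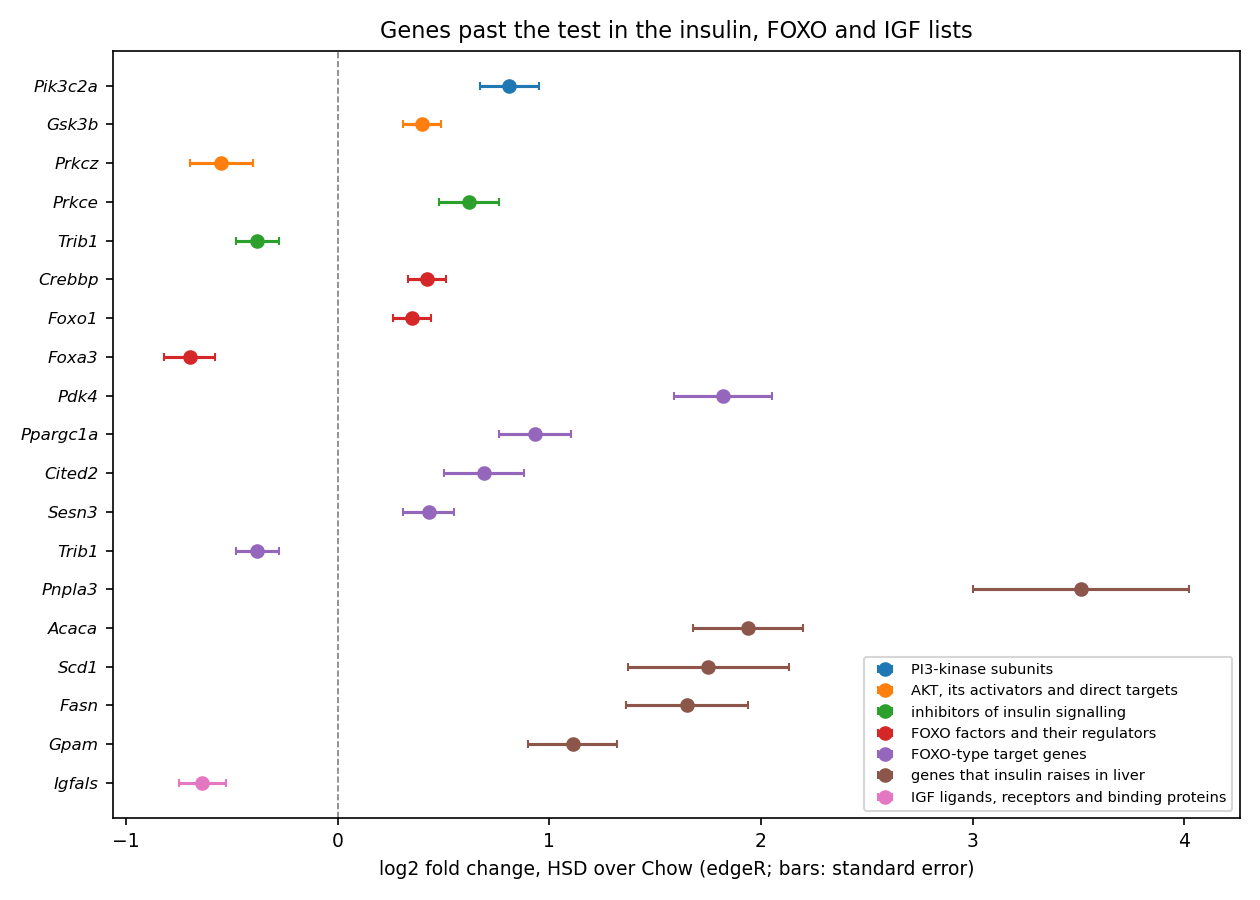
Log2 fold change, HSD over Chow (x axis), with standard errors from edgeR, of the genes past the test in the 8 lists, coloured by list. Genes that insulin raises lie between 1.11 and 3.51, *Foxo1* lies at 0.35, and *Trib1*, which is in both the inhibitor and the target list, is drawn for each.

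*Srebf1*, the factor through which insulin raises lipogenic genes, did not pass (0.22, SE 0.18, adjusted p = 0.509 from edgeR). Among 11 tested genes of the IGF system 1 was called by edgeR (9.09%, against 6.67% of all genes tested). *Igfals*, the acid-labile subunit that keeps IGF complexes in blood, was lower (-0.64, SE 0.11, adjusted p = 0.00657 from edgeR) and 0 were higher. In that list 3 had an unadjusted p value under 0.05, and DESeq2 called *Igf1r* higher and *Igfals* and *Igfbp4* lower. The listed genes *Socs1*, *Foxo6*, *Igf2*, *Pappa*, *Pappa2* and *Stc2* had at most 28 counts in any liver and were not tested.

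Markers of other liver cells were set beside these results. The 8 Kupffer cell and macrophage genes summed to 153 to 356 CPM on Chow and 97.5 to 199 CPM on HSD, and none passed (edgeR and DESeq2 both 0, with 4 at an unadjusted p value under 0.05). All 8 had a negative log2 fold change, with a median of -0.59, and -0.39 without Chow 1. Endothelial markers summed to 135 to 172 and 146 to 166 CPM, stellate markers to 95.3 to 121 and 111 to 157 CPM, and bile duct markers to 29.9 to 73.5 and 44.1 to 68.1 CPM. In these lists edgeR called 0 genes, with 1 of 6, 2 of 7 and 2 of 5 at an unadjusted p value under 0.05, and DESeq2 called the stellate markers *Lrat* and *Reln* and the bile duct marker *Epcam* higher on HSD. All 5 bile duct markers had a positive log2 fold change, with a median of 0.37. Without Chow 1 their Chow sums ran from 29.9 to 47.9 CPM and the median was 0.71. All 5 were positive then too, 3 had an unadjusted p value under 0.05 and 0 passed by edgeR. The 9 acute-phase genes summed to 13698 to 85126 CPM on Chow and 14272 to 15815 CPM on HSD. None passed by edgeR or DESeq2, 7 had an unadjusted p value under 0.05, all 9 had a negative log2 fold change and their median was -1.74. Without Chow 1 their Chow sums ran from 13698 to 21605 CPM, the median was -0.46, 8 of the 9 were negative and 1 passed by edgeR. The 11 clock genes summed to 334 to 597 CPM on Chow and 393 to 550 CPM on HSD, with a median of -0.08. By edgeR 0 passed, 2 had an unadjusted p value under 0.05, and DESeq2 called 2 higher. Without Chow 1, 10 clock genes were tested, with a median of -0.39. Of these, 6 had an unadjusted p value under 0.05 and 1 passed by edgeR. Red blood cell transcripts summed to 182 to 459 CPM on Chow and 115 to 157 CPM on HSD, with 1 of 5 (*Alas2*) lower. Their part in the levels of the 10 genes was not tested.

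Genes whose profile over the 9 livers was most like that of *Insr*, *Irs2* and *Igfbp1* were found by the root-mean-square difference of log2 CPM, each centred and scaled to unit SD. *Irs2* had the closest match, the zinc finger gene *Zfp622* (0.198), followed by *Plscr3* (0.315) and *Mpv17l2* (0.363). For *Insr* the nearest were *Sfxn5* (0.437), *Cbfa2t2* (0.442) and *Zfp51* (0.468). For *Igfbp1* they were *Chmp1b* (0.455), *Eny2* (0.455) and *Nipsnap3b* (0.466). Each profile has 9 points that share their libraries, and all genes with a mean log2 CPM of at least 1 were searched.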

How the data were processed

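Transcripts of 9 mouse livers were analysed, grouped by the diet in the labels. Poly-A RNA was sequenced by the authors as paired reads of 51 bases and quantified with kallisto, for which the submitters' processing notes name GRCm38. They deposited estimated counts per gene symbol, not scaled, and TPM values, which the authors scaled to transcript length and library. The version of kallisto and the step from transcripts to genes are not given in the sources used here. Kallisto divides reads among similar transcripts, so overlapping genes can trade counts. Of the values above 0, 34.1% were whole, and 99.1% of those were even, so counts were also tested halved. Same-diet libraries differed by a chi-square of at least 14.5 per degree of freedom, and none was a repeat.

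Rounded counts were filtered by filterByExpr with a minimum count of 10 and a minimum total of 15. After TMM scaling, diet was the single term of the quasi-likelihood fit (edgeR 4.0.16, R 4.3.3). The methods state no tool for the mice. Log2 CPM used a prior count of 2. Alternatives were DESeq2 1.42.0, other scaling or no filter, limma 3.58.1 on log2(TPM + 1) or log2(TPM + 0.1), covariates, a replicate block and each liver left out. The first label series alone was added after seeing the data. The fit was also run on simulated counts, with the same dispersion for every gene and planted changes larger than that of *Foxo1*. That run says nothing about calls of the size of *Foxo1*. The 10 genes, the lists and the tests were chosen with earlier results of these data known. Named genes are the 10, up to 4 per list with the largest change among those past the test, the textbook outputs *Pck1*, *G6pc* and *Ppargc1a*, the 3 most similar profiles to *Insr*, *Irs2* and *Igfbp1*, and *Arntl*, *Dbp* and *Saa2* for livers that stand apart. *Igf1r*, *Igfbp4*, *Srebf1*, *Bcl2l11*, *Pnpla2*, *Sod2*, *Cdkn1a*, *Mttp*, *Alas2*, *Lrat*, *Reln*, *Epcam* and the untested genes were named after their values were seen. Of the genes under this rule 1 is not reported here and was left out of the lists. Gene models are from GENCODE M21 and promoters from RefSeq. No column of another sample was present (0 columns). At 12769668 to 25913869 counts per liver, depth sets the counting error only. The human cohorts were not analysed here.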

Additional observations from a re-analysis of the deposited data

Results flagged for a closer look

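In 5 of the 64 gene-by-diet groups examined for single livers (7.81%), 1 liver stood apart from the rest of its diet by a gap that was most of the group's range, where chance gives about 1 in 20. Values are log2 CPM minus the mean of the other livers of the same diet. *Insr* was 0.34 higher in Chow 4. *Igfbp1* was 0.65 higher in Chow 2, and its diet difference was 0.58 without that liver against 0.43 with it. *Foxa3* was 0.29 higher in HSD 2, and *Prkce* stood at -0.52 in the same liver. *Sesn3* stood at -0.53 in Chow 1.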

How the results depend on the processing

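The 10 genes had at least 228 counts in every liver, and counting error was not compared with the spread between livers. The number of genes called over the whole table was 807, and it was 1330 with DESeq2, 294 with limma on unfiltered log2(TPM + 1), 428 with the replicate block, 34 in the first label series alone and 302 to 968 with 1 liver left out (302 without HSD 1, 329 without HSD 4, 478 without HSD 3). Of the 10 genes, 1 was called, and 0 under unfiltered limma, the replicate block, the label series covariate, the clock covariate and the first series alone, and 0 to 1 with 1 liver left out. Of the pathway genes 18 were called, 28 by DESeq2, 6 by unfiltered limma, 0 in the first series alone and 10 to 21 with 1 liver left out (10 without HSD 1 or HSD 4). The same replicate number in both diets did not pair the livers (correlations of deviations -0.0609 to 0.0661), so the block tests a shared number only. With it, *Foxo1* had a log2 fold change of 0.37 and an adjusted p value of 0.0850 from edgeR, 13 pathway genes were called, and the ratio differences by sign flips over 4 pairs were -0.48 (*Irs2*/*Irs1*, exact p = 0.250), -0.18 (*Akt2*/*Akt1*, 0.625), 0.45 (*Foxo1*/*Foxo3*, 0.250) and 0.36 (*Igfbp1*/*Igfbp2*, 0.125, the smallest possible).

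Signs changed in genes close to 0, and no cause was tested. With library totals the log2 fold changes were 0.03 for *Irs2*, 0.05 for *Akt1*, 0.02 for *Akt2*, 0.03 for *Igfbp2* and 0.07 for *Pck1*. With limma on log2(TPM + 1), filtered and unfiltered alike, they were 0.09 for *Irs2*, 0.05 for *Pik3r1*, 0.28 for *Akt1*, 0.09 for *Akt2*, 0.11 for *Igfbp2* and 0.17 for *Pck1* and *G6pc*, and on log2(TPM + 0.1) they were 0.10, 0.06, 0.29, 0.10, 0.11 and 0.17, with 0.00 for *Foxo3*. The median of all genes on log2(TPM + 0.1) was 0.16. After subtracting it, the log2 fold changes were -0.05 for *Irs2*, -0.10 for *Pik3r1*, -0.06 for *Akt2* and -0.04 for *Igfbp2*. They were then -0.15 for *Foxo3* and 0.13 for *Akt1*. With the block they were 0.08 for *Pik3r1* and 0.06 for *Igfbp2*. With the label series they were 0.01 for *Irs2*, 0.00 for *Akt1* and 0.08 for *Pck1*. With the clock covariate they were 0.21 for *Irs2*, 0.04 for *Pik3r1*, 0.03 for *Foxo3* and 0.10 for *Igfbp2*, and in the first series alone 0.28 for *Irs2*, 0.20 for *Igfbp2* and 0.03 for *Pck1*. With 1 liver left out they ran from -0.33 to 0.11 for *Irs2*, -0.18 to 0.07 for *Pik3r1*, -0.10 to 0.09 for *Akt1*, -0.18 to 0.05 for *Igfbp2*, -0.09 to 0.06 for *Pck1* and -0.33 to 0.28 for *G6pc* (0.28 without Chow 2). *Insr*, *Irs1*, *Igfbp1* and *Foxo1* kept their sign in all 21 settings. Of the 16 other called genes followed over the settings, 0 changed sign and 8 passed without any single liver, while in the first series alone 0 passed.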
